A study of Mus musculus with 6 samples.

Results

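Interferon-stimulated effector genes are the genes whose products carry out the antiviral state that interferon induces. A list of 35 of them was looked up in a table of gene-level estimated counts from splenic B cells. All 35 were found among its 41669 genes, 34 under their own symbol and Ifit3b under its older symbol I830012O16Rik. The table covers 6 NZB/W F1 mice, a cross prone to spontaneous lupus-like disease, all of them at a late stage of it. Of these, 3 were females and 3 were males, each an individual mouse by its label, and healthy or unstimulated cells were not analysed here. The B cells had been bound to a positive-selection column and then kept for 24 h with CpG, a DNA motif that activates B cells through Toll-like receptor 9, so stimulation, strain and disease were shared by both groups. The labels used here state no age for the mice. The comparison asked which genes differ in expression between the sexes.

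Type I interferons bind a receptor whose kinases, Jak1 and Tyk2, phosphorylate transcription factors, among them Stat2. These and Irf9 form the complex ISGF3, which binds a short DNA element, the interferon-stimulated response element, in front of its target genes. The target genes encode sensors of viral RNA, enzymes that destroy or mark RNA, GTPases that block viral particles, and feedback inhibitors. A raised level of these genes in blood cells is a known feature of human systemic lupus erythematosus.

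The element has a recognisable core, and it was searched as GAAA, any 2 bases and GAAA again, or on the other strand TTTC, any 2 bases and TTTC, with overlapping matches allowed, in promoter windows of 300 bases taken from RefSeq (GRCm38.p6), which reach from 250 bases before a gene's start to 50 bases after it. Of the 35 genes, 25 had such a window, and 14 of those 25 (56.0%) held the letters, against 1079 of 27025 genes with a window (3.99%). The match nearest to the start is printed below for each of the 14, because these are the stretches that the genes have in common. The strand is that of the gene, each sequence runs 5′ to 3′, the 10 bases of the match are in capitals, and up to 10 bases stand on either side.
Ifit1 (chr19:34640794-34640823, plus strand): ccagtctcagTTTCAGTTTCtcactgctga
Ifit3 (chr19:34583397-34583426, plus strand): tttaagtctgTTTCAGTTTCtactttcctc
Ifit3b (chr19:34607793-34607822, plus strand): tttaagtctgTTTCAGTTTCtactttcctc
Isg15 (chr4:156200865-156200894, minus strand): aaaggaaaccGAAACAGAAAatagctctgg
Oas1a (chr5:120907520-120907549, minus strand): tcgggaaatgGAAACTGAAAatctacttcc
Oas1g (chr5:120887606-120887635, minus strand): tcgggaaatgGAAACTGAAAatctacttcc
Oas3 (chr5:120777715-120777744, minus strand): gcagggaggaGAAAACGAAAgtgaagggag
Gbp2 (chr3:142620594-142620623, plus strand): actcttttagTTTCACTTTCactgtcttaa
Ifih1 (chr2:62646206-62646233, minus strand): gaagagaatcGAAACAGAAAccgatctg
Ddx58 (chr4:40239804-40239833, minus strand): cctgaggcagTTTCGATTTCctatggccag
Eif2ak2 (chr17:78882535-78882564, minus strand): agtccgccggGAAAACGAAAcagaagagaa
Rsad2 (chr12:26456553-26456582, minus strand): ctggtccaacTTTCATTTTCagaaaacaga
Bst2 (chr8:71537577-71537606, minus strand): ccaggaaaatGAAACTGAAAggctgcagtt
Trim30a (chr7:104446104-104446133, minus strand): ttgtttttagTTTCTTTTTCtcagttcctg

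The printed stretch was identical, base for base, between the neighbouring copies Ifit3 and Ifit3b, and again between Oas1a and Oas1g. The window of Isg15 held 3 overlapping matches. The letters were not found in the windows of Ifit2, Herc6, Oasl1, Oasl2, Isg20, Samd9l, Cmpk2, Dtx3l, Ifi44, Ifi35 and Xaf1, which says only that these letters are not in these 300 bases. Usp18, Oas2, Mx1, Mx2, Dhx58, Zbp1, Rtp4, Parp9, Parp14 and Ifi27l2a had no window in the table used.

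The libraries held 24089561 to 35659883 estimated counts in females and 27402953 to 33205284 in males. A floor of 3 counts therefore lay at a level of 0.0841 to 0.125 CPM, which are counts scaled to the library total. Xist and 4 Y-linked genes matched the labelled sex in 6 of 6 libraries. One library, female replicate 3, was set apart from the rest. On the first principal component (50.8% of the variance) it scored 94.2 and the others -47.9 to 6.66, and across genes its deviation and the GC content of the longest transcript had a Spearman correlation of -0.58. In the other libraries this correlation ran from -0.02 to 0.50, with 0.50 in female 1 and 0.44 in male 1. The sum of 10 B cell markers was 2475 to 2668 CPM in females and 2502 to 2684 CPM in males, most of it Ms4a1, the gene of a B cell surface protein.

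The genes fell into 3 levels by their mean over the 6 libraries. Well expressed, at 10 CPM or more, were 10 genes, namely Samd9l, Trim30a, Eif2ak2, Herc6, Dtx3l, Parp14, Parp9, Ddx58, Ifit2 and Ifih1. Low, from 1 to under 10 CPM, were 9 genes, namely Gbp2, Xaf1, Bst2, Cmpk2, Zbp1, Dhx58, Ifi35, Oas3 and Ifi27l2a. Near the floor, under 1 CPM, were the remaining 16, which include most of the genes that name the family: Ifit1, Ifit3, Isg15, Oas1a, Mx1, Mx2, Rsad2 and Usp18. The boundaries fell in gaps between neighbours. Mx2 had a mean of 0.959 CPM just under the lower one and Ifi27l2a 1.42 CPM just over it, while Gbp2 had 4.14 CPM just under the upper one and Ifih1 11.4 CPM just over it. The 35 genes together took 793 to 1511 CPM of a library, and Samd9l alone was 54.6% of that sum.

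**Figure D1:**
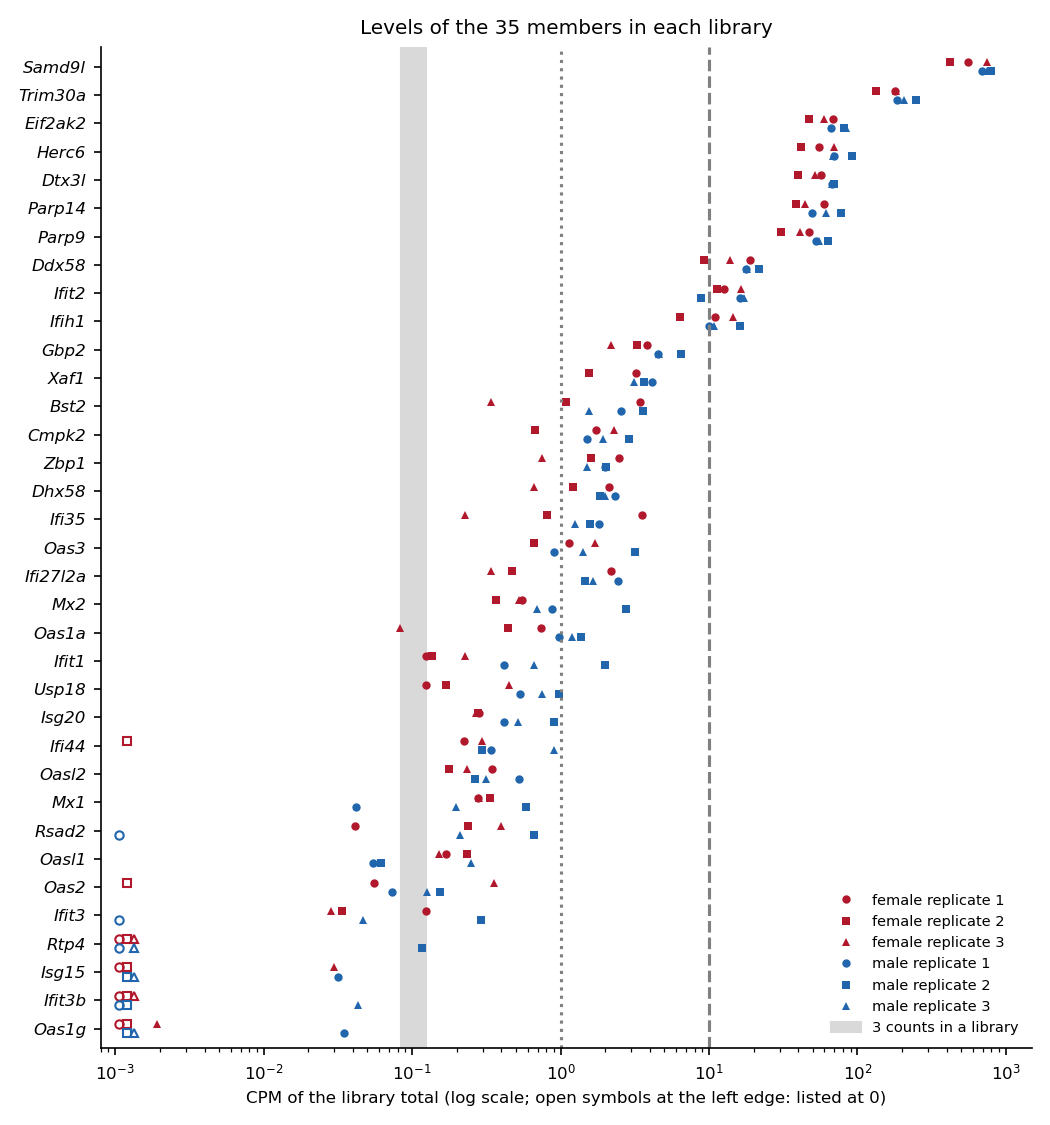
Level of each of the 35 genes in each library, in CPM of the library total on a log scale, with genes ordered by their mean; red symbols are the 3 females and blue symbols the 3 males, the grey band is 3 counts in a library, and the dotted and dashed lines are 1 and 10 CPM. From Samd9l down to Ifih1 10 genes have means of at least 10 CPM, and Isg15, Ifit3b and Oas1g lie at or under 3 counts in all 6 libraries.

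Per kilobase of the longest transcript, the order was headed by Samd9l at 124 CPM per kb and Trim30a at 50.04 CPM per kb. Next came Eif2ak2 at 15.7, Herc6 at 13.9, Parp9 at 13.6, Dtx3l at 11.0 and Parp14 at 7.44 CPM per kb. On this scale the short genes Ifi27l2a (3.08 CPM per kb) and Bst2 (2.64 CPM per kb) stood above the long sensor gene Ifih1 (2.09 CPM per kb). At the other end lay Isg15 at 0.0135, Ifit3b at 0.00361 and Oas1g at 0.00311 CPM per kb. The labels do not say whether the deposited estimates were already scaled by transcript length, so this order is a description that assumes they grow with length.

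No gene of the family was called different between females and males. Under edgeR's quasi-likelihood test at a false discovery rate (FDR) of 0.05, 0 of the 24 genes that passed the low-count filter were called, against 7 of all 12172 genes tested (0.0575%). Ifit1 alone had an unadjusted p under 0.05, against 2.89% of all tested genes. DESeq2 called 0 of 35 (background 0.159%) with 4 at an unadjusted p under 0.05, and limma-voom called 0 of 24 (background 0.0739%) with 3. In DESeq2, Ifit3b, Isg15, Oas1g and Rtp4 had a p-value but no adjusted p, so they could not be called. Its background counts every gene with a p-value. Over all genes tested 2.67% had an unadjusted p under 0.05 in DESeq2 and 3.25% in limma-voom. Of the 19 genes at 1 CPM or more, 0 had such a p in edgeR, 1 in DESeq2 and 0 in limma-voom. The rest were among the genes near the floor. There Ifit1, Usp18, Oas1a and Isg20 passed edgeR's low-count filter through the males. The smallest adjusted p in the family was 0.999 in edgeR, 0.736 in DESeq2 and 0.904 in limma-voom.

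The fold changes nevertheless leaned to one side. Of the 19 genes at 1 CPM or more, all of which were tested, 18 had a negative log2 fold change of female over male, with a median of -0.30, while 49.9% of all tested genes were negative with a median of 0.00. Well-expressed genes had a median of -0.26, with 9 of 10 negative, and values from -0.38 to 0.10. Low genes had a median of -0.53, with 9 of 9 negative. The size depended on single libraries. Without female replicate 3, 17 of the 19 were negative and the median was -0.49, with 47.6% of all tested genes negative. Without female replicate 2, 14 of 19 were negative with a median of -0.11, and 49% of all tested genes. Without male replicate 2, 16 of 19 were negative with a median of -0.15, and 49.4% of all tested genes. Among the 10 well-expressed genes these 3 omissions gave medians of -0.47, -0.08 and -0.15. Leaving out each library in turn, 12 of the 19 were negative throughout and 7 (Ifit2, Ifih1, Samd9l, Oas3, Cmpk2, Zbp1 and Ifi35) changed sign. For the low genes the median was -0.92 without female replicate 1 and -0.31 without male replicate 2. With library totals in place of TMM factors 19 of 19 were negative with a median of -0.45, where the median of all genes was itself -0.12 and 66.5% were negative.

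**Figure D2:**
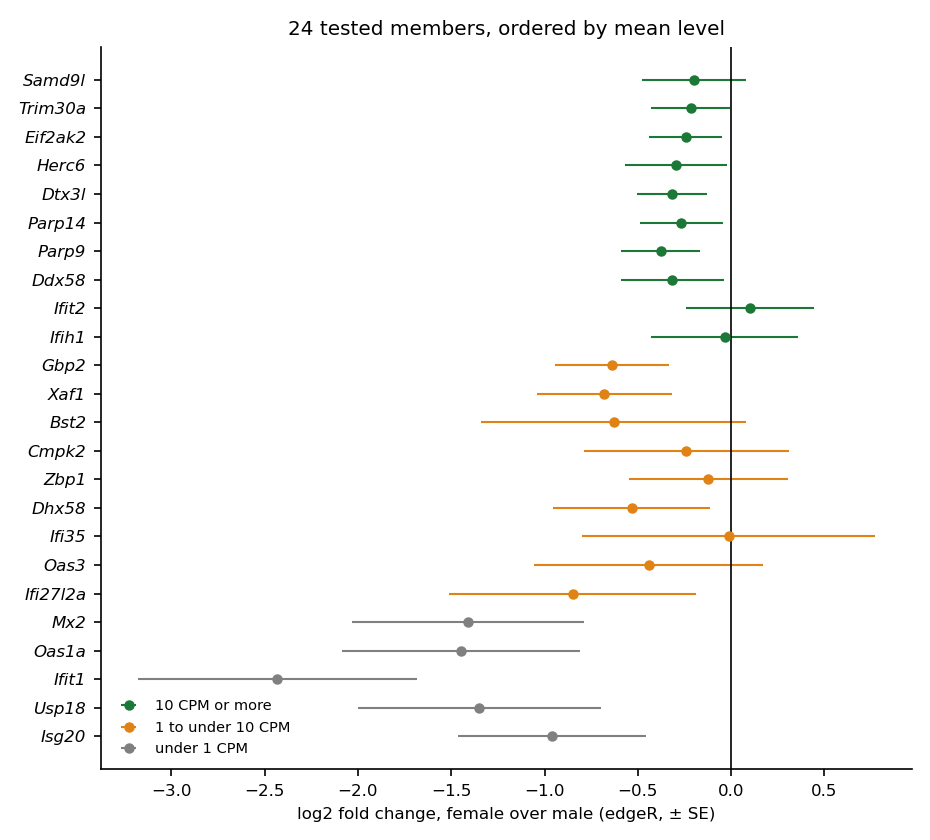
Log2 fold change of female over male with its standard error for the 24 tested genes, from edgeR, ordered by mean level; colours give the level class and the vertical line is the median of all tested genes, 0.00. Ifit2 at 0.10 is the gene to the right of that line, and the intervals widen towards the genes under 1 CPM.

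In 9 of the 24 tested genes every female lay below every male in CPM of the library total, against 7.55% of all tested genes, and in 0 of 24 every female lay above every male, against 2.69%. With TMM-scaled values the first count was 6 of 24, against 4.58%, and the second again 0, against 4.41%. Of the 9 genes, 5 were near the floor: Ifit1, Usp18, Oas1a, Mx2 and Isg20. All but Mx2 of these 5 reached 10 estimated counts in 3 of 3 males and in at most 2 of 3 females, so that the low-count filter let them in through the males. Counted over the 19 genes at 1 CPM or more, 4 genes (Dtx3l, Parp9, Trim30a and Gbp2) did not overlap on library totals, and with TMM scaling Dtx3l and Gbp2 remained, which is 2 of 19.

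Other cell types of the spleen also express these genes, and in bulk RNA fewer cells of a type and less RNA per cell cannot be told apart. Of 8 plasmacytoid dendritic cell markers, 3 were at or under 3 counts in every library. Siglech, a defining receptor of these cells, had 0.311, 0.0968 and 0.356 CPM in female replicates 1 to 3, against 0.210, 0.475 and 0.120 CPM in male replicates 1 to 3. Ccr9, a homing receptor of these cells, had 2.68, 7.14 and 2.76 CPM in female replicates 1 to 3, against 1.61, 2.06 and 0.829 CPM in male replicates 1 to 3, every female lying above every male, with a log2 fold change of 1.61 ± 0.52 (SE). The summed level was 206 to 227 CPM in females and 164 to 203 CPM in males and was mostly Tcf4, a factor that B cells also express, with 177, 208 and 209 CPM in female replicates 1 to 3, against 154, 146 and 181 CPM in male replicates 1 to 3. That list also holds Bst2, one of the effector genes. Of 12 monocyte and macrophage markers 5 were at or under 3 counts in every library, and the sum was 7.35 to 11.3 CPM in females and 2.36 to 3.61 CPM in males. Mrc1 had the highest mean, but its groups overlapped, as did those of Cd68. For Lyz2, Adgre1 and Spic every female lay above every male. The log2 fold changes of these genes were 3.15 ± 0.40 (SE), 1.84 ± 0.51 (SE) and 2.19 ± 0.45 (SE). The erythroid sum was 0.718 to 2.34 CPM in females and 0.0178 to 0.422 CPM in males, with Hbb-bs the highest. For these 3 lists every female lay above every male in the sum. The sums of the conventional dendritic cell, T cell, NK cell and neutrophil lists, in which Flt3, Lck, Klrb1c and Cxcr2 were the highest, were at most 9.31 CPM in any library. Cd3d of the T cell list had 4.54, 2.32 and 2.44 CPM in female replicates 1 to 3. In male replicates 1 to 3 it had 0.477, 0.476 and 2.00 CPM, every female lying above every male. Its log2 fold change was 1.75 ± 0.64 (SE). Lck and Cd8a overlapped, with log2 fold changes of -0.17 ± 0.35 (SE) and -0.72 ± 0.88 (SE). The 7 plasma cell genes, of which Irf4 was the highest, summed to 279 to 488 CPM in females and 275 to 318 CPM in males, with the groups overlapping in the sum but not in every gene. Jchain, the joining chain of secreted antibodies, had 37.7, 48.4 and 48.2 CPM in female replicates 1 to 3, against 17.1, 17.0 and 18.3 CPM in male replicates 1 to 3, with a log2 fold change of 1.51 ± 0.22 (SE). Prdm1, the regulator of plasma cell formation, had 22.1, 61.5 and 22.9 CPM in female replicates 1 to 3, against 11.7, 12.8 and 12.9 CPM in male replicates 1 to 3, with a log2 fold change of 1.63 ± 0.39 (SE). For both every female lay above every male. Irf4, Mzb1, Sdc1 and Xbp1 overlapped between the groups. Their log2 fold changes were 0.58 ± 0.22 (SE), 0.02 ± 0.42 (SE), 0.003 ± 0.37 (SE) and -0.0003 ± 0.16 (SE). Derl3 reached at most 15.0 estimated counts in a library and was not tested. Over the 9 marker lists edgeR called 0 genes, against 0.0575% of all tested genes. An unadjusted p under 0.05 was seen in 11 of 33 tested, 10 of them with a positive fold change. Over all tested genes 2.89% had such a p, in either direction. In 2.69% of all tested genes every female lay above every male in CPM of the library total. The part of these cells in the values of the effector genes was not tested.

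The RNA sensors come first in the response to infection. Ddx58 encodes RIG-I, which recognises short double-stranded RNA with a triphosphate end, and it had 18.8, 9.30 and 13.9 CPM in female replicates 1 to 3, against 17.7, 21.6 and 18.1 CPM in male replicates 1 to 3. Female replicate 2 was the lowest and male replicate 2 the highest, with overlap between the groups, and the log2 fold change was -0.31 ± 0.28 (SE). Ifih1 encodes MDA5, the sensor of long double-stranded RNA, and had 10.9, 6.37 and 14.4 CPM in female replicates 1 to 3, against 9.98, 16.2 and 10.7 CPM in male replicates 1 to 3. Its groups overlapped throughout, and its log2 fold change was -0.04 ± 0.39 (SE), with -0.51 without female replicate 3 and 0.04, 0.27 and 0.21 without female replicate 1, female replicate 2 and male replicate 2. Dhx58 encodes LGP2, a helper of the other two without a signalling domain. It had 2.11, 1.21 and 0.663 CPM in female replicates 1 to 3, against 2.31, 1.84 and 2.00 CPM in male replicates 1 to 3, with females 2 and 3 below all males and female 1 among them, and a log2 fold change of -0.53 ± 0.42 (SE).

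The kinase and nucleic acid effectors held the most abundant transcript. Samd9l, at chr6:3372257-3399572 on the minus strand, encodes a large cytoplasmic protein that restricts poxviruses and slows cell growth. It had 559, 421 and 744 CPM in female replicates 1 to 3, against 691, 796 and 751 CPM in male replicates 1 to 3. Female 3 lay among the males and female 2 below everything else, and the log2 fold change was -0.20 ± 0.28 (SE), with -0.60 without female replicate 3 and 0.03 without female replicate 2. Eif2ak2 encodes PKR, the kinase that halts translation when it binds double-stranded RNA, and had 68.9, 47.6 and 59.5 CPM in female replicates 1 to 3, against 66.0, 80.7 and 83.2 CPM in male replicates 1 to 3. Only female 1 reached into the male range, and the log2 fold change was -0.24 ± 0.20 (SE).

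Zbp1, a sensor of left-handed nucleic acids that can trigger necroptosis, had 2.46, 1.59 and 0.750 CPM in female replicates 1 to 3, against 2.00, 2.01 and 1.51 CPM in male replicates 1 to 3. Female 1 was the highest of the 6 libraries and female 3 the lowest, and the log2 fold change was -0.12 ± 0.43 (SE), with 0.14 without female replicate 3. Isg20, an exonuclease that degrades single-stranded RNA, was near the floor, with 0.281, 0.278 and 0.271 CPM in female replicates 1 to 3, against 0.414, 0.909 and 0.521 CPM in male replicates 1 to 3. The females lay close together and below the males, at 6.76 to 9.66 estimated counts a library in females and 13.1 to 24.9 in males, and the log2 fold change was -0.96 ± 0.51 (SE).

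Genes of ADP-ribosylation formed a compact group in level and in position. Parp9 and Dtx3l encode partners in one complex, an ADP-ribosyltransferase and a ubiquitin ligase that together modify histones and promote interferon signalling, and their genes meet head to head on chromosome 16 (chr16:35938470-35972605 on the plus strand and chr16:35926511-35939151 on the minus strand). Dtx3l had 56.5, 39.8 and 51.6 CPM in female replicates 1 to 3, against 66.9, 69.3 and 67.9 CPM in male replicates 1 to 3. Parp9 had 47.4, 30.4 and 40.7 CPM in female replicates 1 to 3, against 52.5, 62.9 and 54.9 CPM in male replicates 1 to 3. For both genes every female lay below every male on library totals, and with TMM scaling this held for Dtx3l but not for Parp9. The log2 fold changes were -0.32 ± 0.19 (SE) for Dtx3l, with an unadjusted p of 0.133 in edgeR, and -0.38 ± 0.21 (SE) for Parp9, with an unadjusted p of 0.110. The gene bodies overlap on opposite strands, 8.54% of the 31-base words of Parp9 transcripts occur in Dtx3l transcripts, and no source used here states that counting used the strand, so the pair is not independent. Parp14, a further family member that adds ADP-ribose to proteins, had 59.6, 38.7 and 44.5 CPM in female replicates 1 to 3, against 49.6, 77.8 and 61.1 CPM in male replicates 1 to 3. Here male 1 lay among the females, and the log2 fold change was -0.27 ± 0.22 (SE).

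The ISG15 system was split. Isg15 encodes a ubiquitin-like protein that is attached to newly made proteins, and the table listed it at 1.06 estimated counts in female replicate 3, 1 in male replicate 1 and 0 in the other 4 libraries. Herc6, the main ligase for ISG15 in the mouse, was well expressed, with 55.4, 41.9 and 69.4 CPM in female replicates 1 to 3, against 69.4, 92.5 and 68.7 CPM in male replicates 1 to 3. Female 2 was lowest and male 2 highest with the other 4 libraries between them, and the log2 fold change was -0.30 ± 0.27 (SE). Of its 31-base words 12.7% also occur in the overlapping gene Gm45193. Usp18, the protease that removes ISG15 and blocks the type I receptor, had 0.124, 0.170 and 0.452 CPM in female replicates 1 to 3, against 0.534, 0.980 and 0.750 CPM in male replicates 1 to 3. All females lay below all males on library totals, though not after TMM scaling, and the log2 fold change was -1.35 ± 0.65 (SE).

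Among the IFIT genes, which encode RNA-binding proteins that keep foreign messages from being translated, one member stood out in level. Ifit2 had 12.6, 11.3 and 16.3 CPM in female replicates 1 to 3, against 16.2, 8.81 and 17.2 CPM in male replicates 1 to 3. Its order was unlike that of the other well-expressed genes, because male 2 was the lowest library, and its log2 fold change of 0.10 ± 0.34 (SE) was the single positive one among the 24 tested genes, and was -0.22 without female replicate 3 and -0.14 without male replicate 2. Ifit1, which binds RNA with an incompletely methylated cap, had 0.124, 0.136 and 0.226 CPM in female replicates 1 to 3, against 0.413, 1.99 and 0.661 CPM in male replicates 1 to 3. These levels came from 2.99, 4.01 and 8.07 estimated counts in the females and 13.0, 54.5 and 21.9 in the males, and every female lay below every male. The log2 fold change was -2.43 ± 0.75 (SE) with an unadjusted p of 0.0124 and an adjusted p of 0.999 in edgeR, and without male replicate 2 it was -1.52.

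Ifit3 and Ifit3b lie side by side on chromosome 19, at chr19:34583531-34588731 and chr19:34607970-34613401, and share 61.8% of the 31-base words of Ifit3 and 54.1% of those of Ifit3b, so reads can pass between them. Ifit3, whose human counterpart stabilises the binding of IFIT1 to RNA, had at most 2.98 estimated counts in a female and 7.95 in a male (male replicate 2). Ifit3b was listed at 0 in 5 libraries and at 1.44 estimated counts in male replicate 3. No fold is given for either.

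The OAS genes encode enzymes that turn double-stranded RNA into a signal for RNase L, which then cuts RNA. Oas3, the longest of them, had 1.13, 0.667 and 1.70 CPM in female replicates 1 to 3, against 0.899, 3.18 and 1.41 CPM in male replicates 1 to 3. The libraries of both sexes were interleaved, and the log2 fold change was -0.44 ± 0.61 (SE), with -1.01 without female replicate 3 and 0.21 without male replicate 2. Oas1a had 0.743, 0.441 and 0.0829 CPM in female replicates 1 to 3, against 0.981, 1.38 and 1.2 CPM in male replicates 1 to 3, with every female below every male, and a log2 fold change of -1.45 ± 0.64 (SE) with an unadjusted p of 0.0540 in edgeR. Female 3 held 2.95 estimated counts of it, which is under the floor. Its near copy Oas1g shares 68.7% of the 31-base words of Oas1a, so the split between them is uncertain, and Oas1g was listed at 0 in 4 libraries and at no more than 1.10 estimated counts in the others. Oas2 spanned 0 to 0.358 CPM in females and 0.0729 to 0.153 CPM in males. Oasl1 spanned 0.152 to 0.234 CPM in females and 0.0544 to 0.249 CPM in males, and Oasl2 0.176 to 0.343 CPM in females and 0.264 to 0.528 CPM in males. The 3 genes did not pass the filter, and their groups overlapped.

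Of the GTPases, Gbp2, which attacks the membranes around intracellular pathogens and answers to interferon gamma as well, was the most abundant, with 3.80, 3.29 and 2.18 CPM in female replicates 1 to 3, against 4.51, 6.49 and 4.59 CPM in male replicates 1 to 3. Every female lay below every male, also after TMM scaling. The log2 fold change was -0.64 ± 0.31 (SE) with an unadjusted p of 0.0719 in edgeR, and it stayed between -0.73 and -0.45 when single libraries were left out. Mx2, a cytoplasmic inhibitor of viruses, had 0.547, 0.367 and 0.529 CPM in female replicates 1 to 3, against 0.877, 2.74 and 0.692 CPM in male replicates 1 to 3, with male 2 far above the other 5 libraries. Its log2 fold change was -1.41 ± 0.62 (SE) with an unadjusted p of 0.0549 in edgeR, and -0.55 without male replicate 2. GENCODE M21 lists Mx2 as a polymorphic pseudogene, so whether these mice make a working protein from it is not known here. Mx1, the nuclear inhibitor of influenza virus, had 0.277, 0.336 and 0.281 CPM in female replicates 1 to 3, against 0.0416, 0.588 and 0.199 CPM in male replicates 1 to 3, with the lowest and the highest library both male. Mx1 did not pass the filter.

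Rsad2 and Cmpk2 are neighbours on chromosome 12 that read in opposite directions. Rsad2 encodes viperin, which makes a chain-terminating nucleotide, and Cmpk2 a nucleotide kinase that can feed it. Cmpk2 had 1.73, 0.678 and 2.30 CPM in female replicates 1 to 3, against 1.501, 2.90 and 1.94 CPM in male replicates 1 to 3, with interleaved groups and a log2 fold change of -0.24 ± 0.55 (SE), which was 0.15 without female replicate 2 and 0.06 without male replicate 2. Rsad2 had 0.0413, 0.239 and 0.400 CPM in female replicates 1 to 3, against 0, 0.660 and 0.212 CPM in male replicates 1 to 3. It ranged from 0 to 18.1 estimated counts within the males alone and was not tested.

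Bst2 encodes tetherin, which holds budding virions at the cell surface, and had 3.43, 1.08 and 0.339 CPM in female replicates 1 to 3, against 2.54, 3.59 and 1.56 CPM in male replicates 1 to 3. Female 3 was the lowest library and female 1 lay among the males, and the log2 fold change was -0.63 ± 0.71 (SE), with -1.68 without female replicate 1 and -0.19 without female replicate 3. Rtp4, a Golgi chaperone of receptors with antiviral activity, was listed at 0 in 5 libraries and at 3.17 estimated counts in male replicate 2. A count of 0 in these libraries allows a level of up to 0.0841 to 0.125 CPM.

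Of the remaining 5 genes Trim30a was the most abundant. It encodes a mouse ubiquitin ligase that dampens Toll-like receptor signalling, and had 180.2, 132 and 181 CPM in female replicates 1 to 3, against 186, 247 and 205 CPM in male replicates 1 to 3. All females lay below all males by a small margin, which TMM scaling removed, and the log2 fold change was -0.22 ± 0.21 (SE). Xaf1, a promoter of apoptosis, spanned 1.56 to 3.24 CPM in females and 3.13 to 4.16 CPM in males, and its log2 fold change was -0.68 ± 0.36 (SE). Ifi27l2a, which encodes a small hydrophobic protein, spanned 0.339 to 2.19 CPM in females and 1.45 to 2.44 CPM in males, and its log2 fold change was -0.85 ± 0.66 (SE), with -1.98 without female replicate 1 and -0.50 without female replicate 3. Ifi35, whose product binds the protein Nmi, spanned 0.226 to 3.52 CPM in females and 1.24 to 1.83 CPM in males, and its log2 fold change was -0.01 ± 0.79 (SE), with -1.42 without female replicate 1 and 0.26, 0.46 and 0.13 without female replicate 2, female replicate 3 and male replicate 1. The females 1 and 3 were the highest and lowest of the 6 libraries for Ifi35. An antisense gene, Gm11626, shares 12.8% of the 31-base words of Ifi35. Ifi44, an interferon-induced cytoplasmic protein, had 0.223, 0 and 0.294 CPM in female replicates 1 to 3, against 0.342, 0.297 and 0.908 CPM in male replicates 1 to 3 and was not tested.

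The genes varied together from library to library, and 1 library of each sex was at the extremes mainly for the well-expressed ones. On TMM-scaled log2 CPM, of the 19 genes at 1 CPM or more, 9 had their highest level in male replicate 2 (47.4%, against 18.1% of all tested genes) and 12 had their lowest in female replicate 2 (63.2%, against 10.3%). Among the 10 well-expressed genes these counts were 6 and 9. Among the 9 low genes they were 3 and 3, and there male replicate 1 was also the highest for 3. Female replicate 2 was above the mean of the 6 libraries for 0 of the 19 genes and male replicate 2 for 18 of 19. As medians over the 19 genes, the deviations from the mean were -0.05, -0.55 and 0.09 in female replicates 1 to 3 and 0.09, 0.35 and 0.14 in male replicates 1 to 3. The medians of all tested genes lay between -0.03 and 0.03 in the 6 libraries. The summed level of the 10 well-expressed genes, in CPM of the library total, was lowest and highest in the same libraries, with 1069, 779 and 1236 CPM in female replicates 1 to 3, against 1226, 1473 and 1338 CPM in male replicates 1 to 3, and female 3 lay inside the male range.

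**Figure D3:**
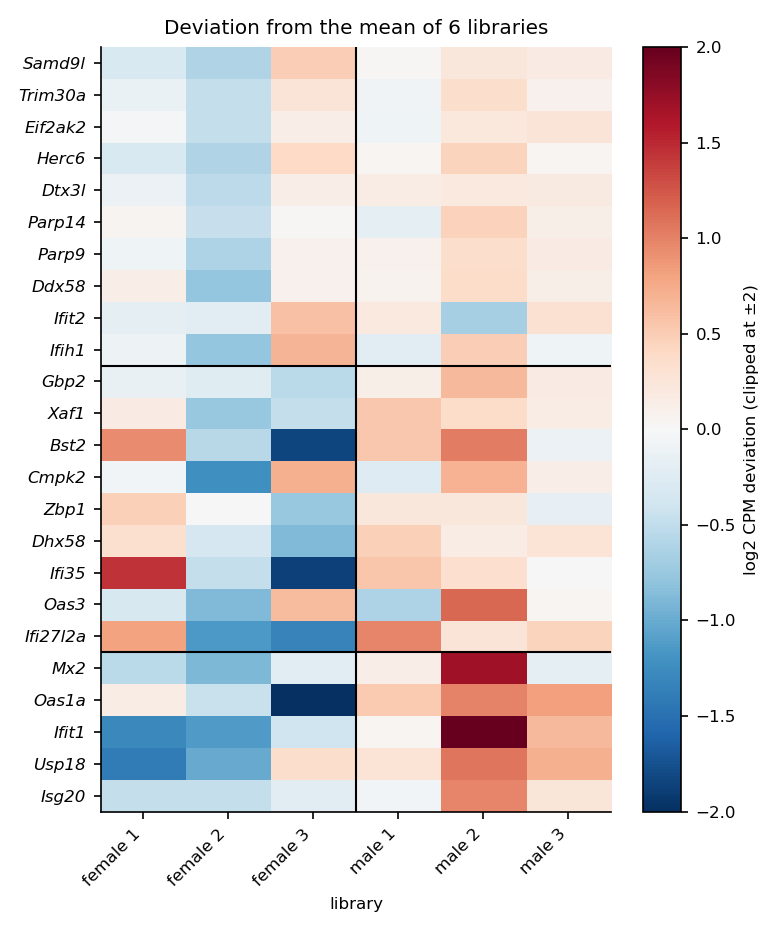
Deviation of each tested gene from its mean over the 6 libraries, in TMM-scaled log2 CPM, with red above and blue below the mean, females left of the vertical line and males right of it, and horizontal lines between the level classes. Among the 19 genes at 1 CPM or more, female replicate 2 is above the mean in 0 and male replicate 2 in 18, while female replicate 3 is above the mean in 10 of 10 well-expressed genes and in 2 of 9 low ones.

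Female replicate 3 behaved differently in the 2 upper classes. Among the 10 well-expressed genes it was above the mean in 10 of 10 and the highest library for 3, whereas among the 9 low genes it was the lowest library for 6, with a median deviation of -0.76. The classes also differed in base composition. Split at the median GC content of the 19 genes at 1 CPM or more, 46.6%, the 10 genes at or above it had a median log2 difference of -0.61 between female 3 and the mean of females 1 and 2, and the 9 below it had 0.79. The median log2 fold changes of female over male were -0.49 in the upper GC group and -0.24 in the lower with all libraries, and -0.48 and -0.49 without female replicate 3. When each library was corrected for a trend over GC content and length, 19 of the 19 genes at 1 CPM or more were negative with a median of -0.34, and 46.4% of all tested genes were negative.

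Length and GC content also differed between the level classes. The 10 well-expressed genes all had a longest transcript of 3548 to 7417 bases and a GC content of 38.8 to 47.5%, while the other 25 had 463 to 4720 bases (median 2412) and 40.4 to 57.4% (median 50.9). With bounds of 3500 bases and 48% GC, chosen after the values were seen, 12 genes were long and low in GC, of which 10 were well expressed, and Rsad2 and Ifi44 were near the floor. Of the 3107 tested genes of this kind in the whole table, 76.5% had at least 10 CPM. Outside these bounds that share was 45.5% for long genes high in GC. It was 54.5% for short genes low in GC and 33.0% for short genes high in GC. The family had 2, 7 and 14 genes of these kinds, of which 0 were well expressed. Since the bounds were set beside the shortest and the most GC-rich of the well-expressed genes, no well-expressed gene of the family can lie outside them. The part that length and base composition have in these levels was not tested.

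**Figure D4:**
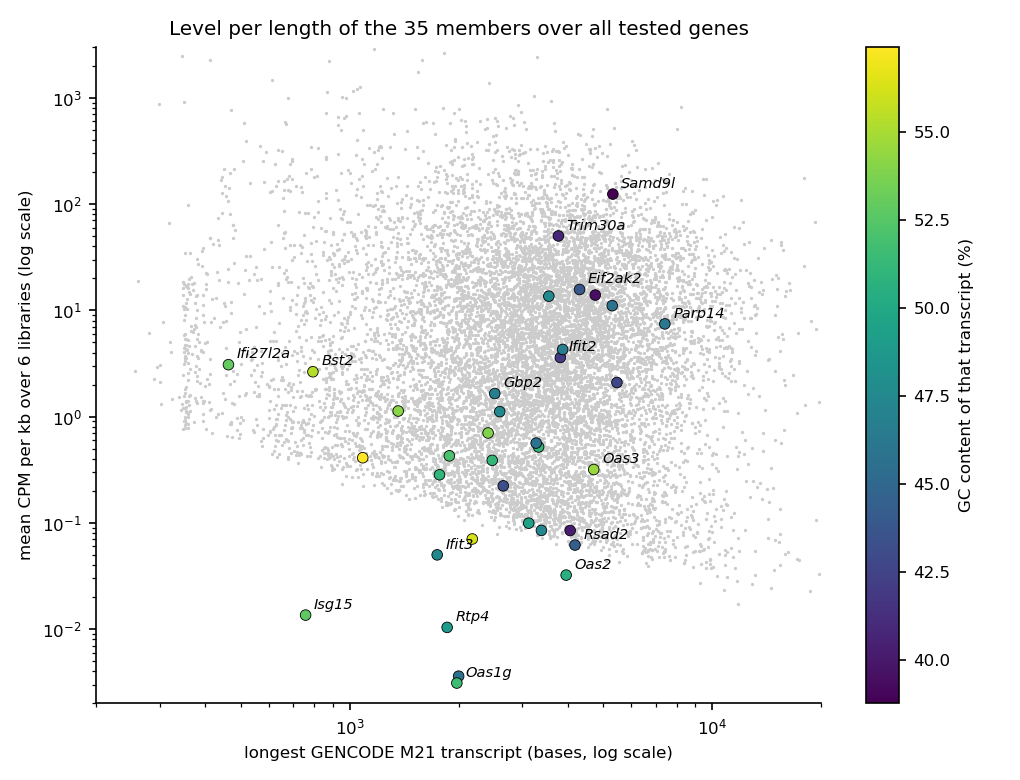
Mean level per kilobase over the 6 libraries against the length of the longest transcript, both on log scales, for the 35 genes (circles coloured by GC content) and all tested genes (grey dots). The 10 well-expressed genes lie at 3548 bases or more, with Samd9l at 124 CPM per kb on top, and Oas1g is the lowest at 0.00311 CPM per kb.

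The letters of the response element were found in all 3 level classes, in 4 of 8 well-expressed genes with a window, 3 of 6 low genes and 7 of 11 genes near the floor.

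Upstream of the family, the interferon transcripts themselves were at or near 0. Of 18 type I interferon genes, 15 were at 0 estimated counts in all libraries, and Ifnk, Ifna13 and Ifna16 had at most 6.96, 2.00 and 3.03. Ifng, Ifnl2 and Ifnl3 were at 0 throughout. The receptors were present and 0 of 6 were called, at an unadjusted p under 0.05 also 0 of 6. Ifnar1, a subunit of the type I receptor, had 51.1, 35.7 and 22.4 CPM in female replicates 1 to 3, against 52.7, 44.4 and 47.1 CPM in male replicates 1 to 3, with overlapping groups. Ifngr1, of the interferon gamma receptor, had 38.7, 36.3 and 37.9 CPM in female replicates 1 to 3, against 42.0, 51.5 and 43.5 CPM in male replicates 1 to 3. Il10rb, which the type III receptor shares with the interleukin-10 receptor, had 32.3, 32.7 and 22.8 CPM in female replicates 1 to 3, against 36.2, 55.2 and 40.1 CPM in male replicates 1 to 3. For Ifngr1 and Il10rb, 2 of the 6 receptors, every female lay below every male on library totals, against 7.55% of all tested genes. With TMM scaling this held for 1 of 6, against 4.58%. The log2 fold changes of Ifnar1, Ifngr1 and Il10rb were -0.31 ± 0.22 (SE), -0.13 ± 0.17 (SE) and -0.46 ± 0.20 (SE). Those of all 6 receptors were negative with a median of -0.30, against 49.9% of all tested genes. After the correction for GC content and length 5 of 6 were negative, with a median of -0.17.

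Of the kinases and the ISGF3 subunits, 0 of 6 were called by edgeR, DESeq2 or limma-voom, and 0, 1 and 2 had an unadjusted p under 0.05 in these tools. Jak1 had 697, 595 and 581 CPM in female replicates 1 to 3, against 617, 725 and 659 CPM in male replicates 1 to 3, with a log2 fold change of 0.04 ± 0.14 (SE). Tyk2, the other kinase of the type I receptor, had 1.39, 0 and 0 CPM in female replicates 1 to 3, against 1.17, 1.61 and 1.15 CPM in male replicates 1 to 3. It was listed at 0 in 2 of 3 females, with a log2 fold change of -1.52 ± 1.35 (SE). Jak2, which serves the interferon gamma receptor, had 53.9, 71.1 and 79.2 CPM in female replicates 1 to 3, against 64.3, 60.4 and 76.6 CPM in male replicates 1 to 3. Tyk2, Stat2 and Irf9 were chosen for mention after their values were seen. Stat2 had 17.4, 11.1 and 7.45 CPM in female replicates 1 to 3, against 18.5, 21.8 and 17.5 CPM in male replicates 1 to 3, with a log2 fold change of -0.59 ± 0.26 (SE). For Stat2 every female lay below every male on library totals. This held for 1 of the 6 genes of the list, against 7.55% of all tested genes. Irf9 had 29.2, 21.2 and 22.8 CPM in female replicates 1 to 3, against 30.6, 51.5 and 24.3 CPM in male replicates 1 to 3, with male 2 the highest, as in 9 of the 19 effector genes at 1 CPM or more, and a log2 fold change of -0.41 ± 0.29 (SE).

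In the other lists of the pathway 0 genes were called and 0 had an unadjusted p under 0.05. Of 5 interferon regulatory factors that induce interferon, Irf8 was the highest in CPM, with 147, 101 and 107 CPM in female replicates 1 to 3, against 126, 93.8 and 119 CPM in male replicates 1 to 3, with overlapping groups. Irf7, itself an interferon-stimulated gene, reached at most 7.72 estimated counts in a library. Of 7 inhibitors of interferon signalling, which include the phosphatase Ptpn2, 0 had a negative log2 fold change, and the median was 0.15. With library totals alone 4 of the 7 were negative, and after the correction for GC content and length 3 of 7. Of 8 adaptors and receptors downstream of nucleic acid sensing 6 were negative, with a median of -0.11, but without female replicate 3 only 2 of 8 were negative and the median was 0.18. The kinase Tbk1 was the highest with a mean of 89.1 CPM over the 6 libraries. A further list of 44 interferon-stimulated genes outside the family had 41 tested genes, of which 33 were negative with a median of -0.23. Its highest member in CPM was Zc3hav1, the antiviral zinc-finger protein ZAP, with 262, 249 and 230.2 CPM in female replicates 1 to 3, against 280.2, 347 and 275 CPM in male replicates 1 to 3 and a log2 fold change of -0.14 ± 0.15 (SE). Next was Slfn8 of the Schlafen family, with 150.5, 112 and 132 CPM in female replicates 1 to 3, against 132, 286 and 169 CPM in male replicates 1 to 3, male 2 again being the highest. Male 2 was the highest library for 17 of the 41 and female 2 the lowest for 15.

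**Figure D5:**
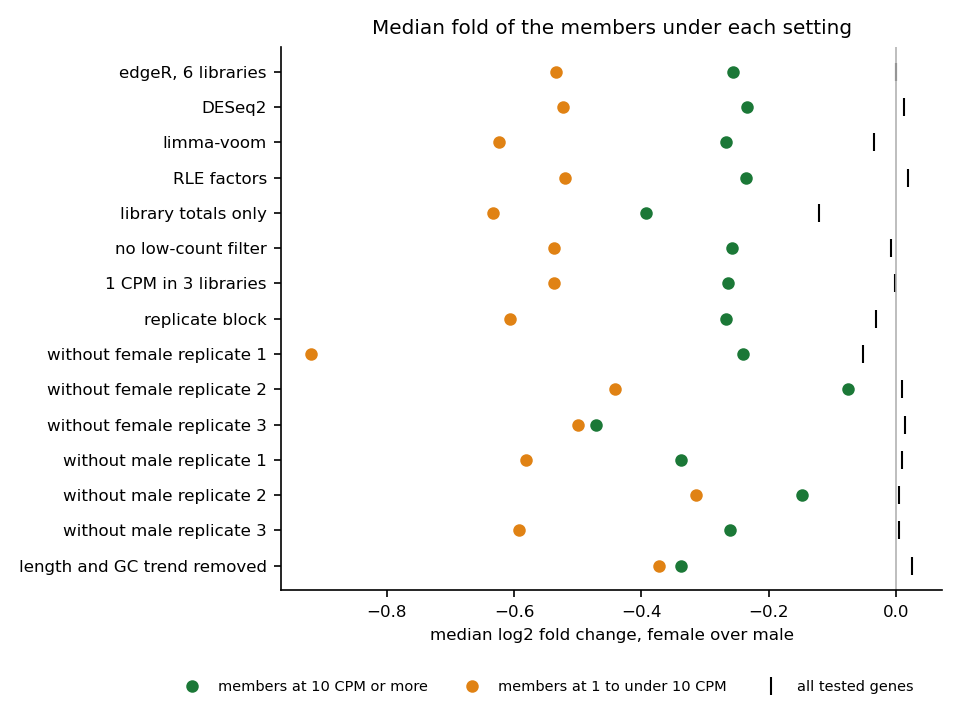
Median log2 fold change of female over male for the 10 well-expressed genes and the 9 low genes, with the median of all tested genes as a tick, under each processing setting and with each library left out. The well-expressed median runs from -0.47 without female replicate 3 to -0.08 without female replicate 2, and both classes stay below 0 throughout.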

How the data were processed

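RNA was sequenced from CpG-stimulated splenic B cells of 6 mice. The deposited table holds estimated counts per gene, not scaled to a common depth. Kallisto, DESeq2 and the build GRCm38.p6 are named in the submitters' processing notes; the sources used here give neither their versions nor the annotation. Whether they were scaled by transcript length is not stated. An estimated count divides reads between similar transcripts, so near copies can exchange reads. The floor of 3 counts covers counting error only.

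Levels are CPM of the column total. The estimated counts were rounded and tested with edgeR's quasi-likelihood test (version 4.0.16 in R 4.3.3) after filterByExpr and TMM normalization, in a model of sex alone. Its p-values were adjusted by Benjamini-Hochberg over the 12172 genes that passed, and an FDR of 0.05 was used. A standard error is the log2 fold change divided by the square root of F. Alternatives were DESeq2 1.42.0, limma-voom (limma 3.58.1), RLE factors, library totals only, no filter, a minimum of 1 CPM in 3 libraries, a replicate block and each library left out; removal of a length and GC trend (natural splines, 4 degrees of freedom) was chosen after seeing the data. Deviations used log2 CPM with a prior count of 2. Lengths, coordinates and shared 31-base words are from GENCODE M21 on GRCm38.

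The genes and lists were chosen with earlier results of these data known. Values in every library were given for the 3 genes with the smallest p, the highest and lowest of each role group and near copies; others were added after their values were seen. Of the genes named by the rules for the pathway lists, 1 is not reported here. Figures were drawn with matplotlib 3.10.9.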

Additional observations from a re-analysis of the deposited data

How the results depend on the processing

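Under every alternative run, 0 of the effector genes were called. The number with a negative log2 fold change was 23 of 24 with limma-voom, RLE factors and the replicate block, 24 of 24 with library totals alone and after the trend correction for GC and length, 18 of 19 with 1 CPM in 3 libraries, 30 of 35 with DESeq2 and without a filter, and 22 to 24 of 26 or 27 when single libraries were left out. The median log2 fold change of the tested genes, -0.35, ranged from -0.52 (without female replicate 3) to -0.15 (without female replicate 2). Except with 1 CPM in 3 libraries, these counts and medians include Ifit1, Usp18, Oas1a and Isg20, which the filter let in through the males. For the 19 genes at 1 CPM or more the median was -0.30. It ranged from -0.49 (without female replicate 3) to -0.11 (without female replicate 2). Over all genes, 7 were called by edgeR, against 32 by DESeq2, 11 without a filter, 11 with the trend removed, and 4 to 12 with single libraries left out (12 without female replicate 1 or 3; 4 without female 2, male 1 or male 2); the cause was not tested. With the replicate block 7 genes were called and the median of the effector genes was -0.38. Deviations of same-numbered libraries correlated at 0.22, 0.04 and 0.07, and not every library correlated best with its own number, so the numbers were not taken as pairs. Depth limits the 16 genes under 1 CPM, where a few counts in 1 library set the value.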
